A study of Mus musculus with 18 samples.

Results

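The hotspots described here are meiotic break sites mapped in males homozygous for the PWD form of PRDM9 and looked up in the infertile hybrid that carried the same allele beside the B6 one. They are the autosomal DMC1 hotspots of PWD/PWD males whose centre lay more than 1000 bp from every hotspot of the B6/B6 map. This kept 20644 of 21103 hotspots, or 97.8%, and removed 459. A member was called found when the nearest hotspot centre of the infertile F1 map, which holds 23554 autosomal hotspots, lay within 1000 bp. The infertile F1 males had a PWD mother and a B6 father and were heterozygous at Prdm9 for the PWD and B6 alleles. The PWD/PWD males were of the inbred strain PWD/PhJ, homozygous for the PWD allele. DMC1 was measured by ChIP-seq in snap-frozen testes of males about 10 weeks old, with 1 library for each genotype. No DMC1 map had a replicate, so no difference between maps was tested, and the intervals given here cover the counting or ranking of hotspots only. The B6/B6 map used for the exclusion is a re-analysis of a library made by other submitters.

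PRDM9 is a zinc-finger protein of early meiosis that binds DNA and places H3K4me3, trimethylation of lysine 4 of histone H3, on the nearby nucleosomes. Breaks are then made at these sites, and their single-stranded ends are coated with the strand-exchange protein DMC1, which uses the homologous chromosome as the repair template. Alleles of Prdm9 that differ in their zinc fingers recognise different sequences, and a strain tends to lose the best copies of the sites that its own allele uses, so in a hybrid the 2 homologues can carry copies of unequal quality. Males from this direction of the cross are a standard model of hybrid sterility. The heat of a hotspot is the authors' relative DMC1 signal for it, and the B6 share is the fraction of the F1 signal that came from the B6 chromosome.

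Short words that recurred at the member centres gave a first view of the sequences. The 8-letter words most raised over flanks at 800 to 1000 bp were chosen on the odd-numbered autosomes and counted on the even-numbered ones. The 10 words, each searched on both strands within 100 bases of the centre, were CCAGGTCA, CAAGTCAC, CCAAGTCA, AGACTTGG, CCCAGTCA, AAGTCAGT, CAGGTCAA, ACAGACTG, CAGGCCAA and CAAGTCAG. Several overlap each other, since CCAAGTCA, CAAGTCAC and CAAGTCAG share CAAGTCA. Of 9867 member centres on even-numbered autosomes 15.9% held at least 1 word, against 7.44% of their flanks and 7.55% of 8177 B6/B6 hotspot centres. The strongest single contrast was CAAGTCAC, held by 2.53% of member centres and 0.79% of flanks. A word match is a description of the window and not a binding site. The reference genome is that of the B6 strain, so the letters are those of the B6 copy, and the PWD copy can differ.

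The following windows, which reach 100 bases to each side of the PWD/PWD centre, show the hottest found member, the member with the largest heat ratio among the 5 hotter deciles, and hot members of each B6 share class that hold a word. They come from the plus strand of the RefSeq sequence of GRCm38, the mm10 build, and capitals mark words from the list of 10. The Klf5 and Sorcs1 windows hold none of them. The last 6 hotspots were chosen after their values were seen.
Klf5, hottest found member, chr14:99308066-99308266: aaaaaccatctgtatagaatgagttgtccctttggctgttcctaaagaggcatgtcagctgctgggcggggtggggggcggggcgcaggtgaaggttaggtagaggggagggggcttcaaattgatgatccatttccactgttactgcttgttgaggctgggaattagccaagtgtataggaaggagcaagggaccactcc
Sorcs1, largest heat ratio, B6 share above 0.9, chr19:50170218-50170418: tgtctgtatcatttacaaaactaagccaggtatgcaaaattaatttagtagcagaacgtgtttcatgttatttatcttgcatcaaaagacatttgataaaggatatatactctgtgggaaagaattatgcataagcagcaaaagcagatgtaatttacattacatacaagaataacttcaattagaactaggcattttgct
Virma, B6 share above 0.9, chr4:11521026-11521226: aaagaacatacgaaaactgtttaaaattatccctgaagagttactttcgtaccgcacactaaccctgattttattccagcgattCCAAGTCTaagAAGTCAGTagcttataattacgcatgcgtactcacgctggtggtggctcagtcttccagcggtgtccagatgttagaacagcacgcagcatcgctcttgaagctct
Sephs1, B6 share above 0.9, chr2:4897433-4897633: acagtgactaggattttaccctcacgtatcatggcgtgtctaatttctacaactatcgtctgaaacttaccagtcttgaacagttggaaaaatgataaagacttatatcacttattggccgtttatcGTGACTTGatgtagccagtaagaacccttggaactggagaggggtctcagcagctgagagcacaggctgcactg
Celf2, B6 share from 0.1 to 0.9, chr2:6687269-6687469: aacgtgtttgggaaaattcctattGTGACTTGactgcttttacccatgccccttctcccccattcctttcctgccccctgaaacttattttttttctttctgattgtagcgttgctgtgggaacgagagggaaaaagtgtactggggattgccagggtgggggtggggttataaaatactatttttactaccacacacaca
Macf1, B6 share from 0.1 to 0.9, chr4:123383835-123384035: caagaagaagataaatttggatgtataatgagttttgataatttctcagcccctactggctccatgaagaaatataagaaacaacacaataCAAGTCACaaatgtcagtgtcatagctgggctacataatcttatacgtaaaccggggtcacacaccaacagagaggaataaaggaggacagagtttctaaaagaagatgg
Ktn1, B6 share below 0.1, chr14:47652583-47652783: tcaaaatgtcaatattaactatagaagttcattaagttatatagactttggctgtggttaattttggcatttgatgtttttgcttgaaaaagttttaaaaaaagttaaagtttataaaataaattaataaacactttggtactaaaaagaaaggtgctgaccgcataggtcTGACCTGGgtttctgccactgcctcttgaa
Ppp4r1l-ps, not found, chr2:173596509-173596709: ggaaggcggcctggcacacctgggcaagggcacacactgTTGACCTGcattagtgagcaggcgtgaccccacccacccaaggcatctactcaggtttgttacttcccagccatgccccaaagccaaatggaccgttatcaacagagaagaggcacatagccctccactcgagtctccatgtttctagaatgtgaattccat

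The member in an intron of Ktn1, which encodes the membrane protein kinectin, had a heat of 343.3 in the infertile F1 and 484.1 in PWD/PWD, with a B6 share of 0.004. The Celf2 member, in an intron of an RNA-binding protein gene, had 469.4 in the F1 and 532.6 in PWD/PWD with a B6 share of 0.893, and the Macf1 member, in an intron of a cytoskeletal linker gene, had 298.3 in the F1 and 336.7 in PWD/PWD with 0.708. Almost the whole F1 signal at Virma, in a coding exon of a gene for an RNA methylation cofactor, lay on the B6 chromosome, with a B6 share of 0.989 and a heat of 440.5 in the F1 against 271.7 in PWD/PWD. At Sephs1, in an intron of a gene named for selenophosphate synthesis, heat was 438.7 in the F1 and 99.9 in PWD/PWD with a B6 share of 0.999. The member in an exon of the pseudogene Ppp4r1l-ps had 203.1 in PWD/PWD and was not found in the F1. The nearest F1 hotspot lay just beyond the limit, 1251 bp away, with a heat of 264.6.

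Whether a PWD/PWD hotspot was in the infertile F1 map depended steeply on its heat. Of the 20644 members 9544 were found, 46.2% with a 95% Wilson interval of 45.6 to 46.9%, next to 46.9% of all PWD/PWD hotspots with no exclusion. Of 16515 B6/B6 hotspots away from PWD/PWD hotspots 40.3% were found in the same map. Of 14777 hotspots of the Hum/Hum map away from both, made from B6 males homozygous for a humanized Prdm9 allele, 0.88% were found. The found members carried 75.3% of the heat of all members. Their median PWD/PWD heat was 86.4, against 22.3 for the 11100 members not found.

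By decile of PWD/PWD heat, from the coldest to the hottest, the share found was 14.1, 17.3, 20.8, 20.9, 27.1, 37.5, 57.3, 76.5, 92.0 and 98.7%. Wilson intervals of neighbouring deciles did not overlap from the fifth decile upward. The coldest decile spans heats of 5.9 to 12.4, the hottest 161.5 to 651.5. The weakest hotspot in the F1 map has a heat of 4, so a member of the coldest decile at its median heat of 10.4 drops out of the F1 map at a log2 heat ratio under -1.38, and one of the hottest decile at 214.7 only under -5.75. Whether cold members not found lay below the lowest F1 heat or were absent cannot be told apart.

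**Figure D1:**
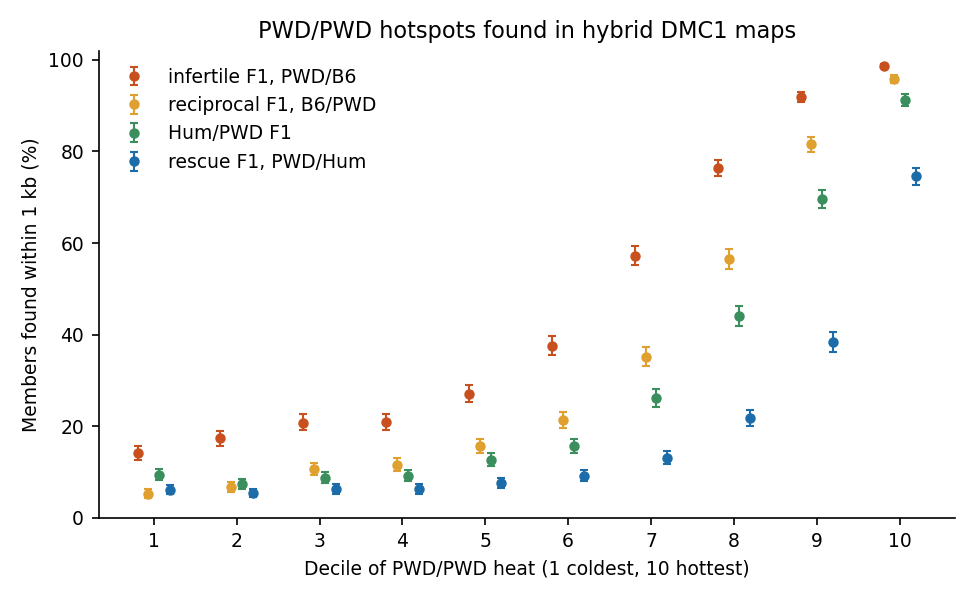
Share of PWD/PWD hotspots found within 1 kb in the infertile F1 map and in 3 other hybrid maps, by decile of PWD/PWD heat; bars are 95% Wilson intervals and each decile holds 2064 or 2065 members. The infertile F1 points are the highest in every decile, from 14.1 to 98.7%, in the longest of the hybrid maps.

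Centres coincided closely. The median distance between a found member and its F1 hotspot was 57 bp, and 64.0% lay within 100 bp. Members not found were a median of 30837 bp from the nearest F1 centre. The 9544 found members matched 9515 F1 hotspots, 29 of them matched by 2 members each, and these hotspots held 37.9% of the F1 heat. The authors' own assignment, deposited with the F1 map, called 92.3% of the matches PWD hotspots, 7.49% undetermined and 0.231%, or 22, B6 hotspots. The undetermined matches were 48.6% of found members in the coldest decile, 25.9% in the fourth and 0.54% in the hottest. The farthest match, on chromosome 14, was at 1000 bp with a heat of 21.9 in the F1 and 66.3 in PWD/PWD, and the closest miss, on chromosome 4, was at 1002 bp with 189.2 for that F1 hotspot and 10.8 in PWD/PWD. On the exclusion side, the member closest to a B6/B6 hotspot lay 1008 bp from it with a PWD/PWD heat of 23.4, and the farthest excluded hotspot lay at 1000 bp with 81.3.

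The hottest found members stood at 5 sites with PWD/PWD heat from 598 to 651.5, and each had an F1 heat between 373.6 and 451.2. The hottest of all, in an intron of the zinc-finger transcription factor gene Klf5 (chr14:99308166), had a heat of 444.8 in the F1 and 651.5 in PWD/PWD, with a B6 share of 0.439. The member 10186 bp from Akr1b3, an aldo-keto reductase gene, had 451.2 in the F1 and 632.8 in PWD/PWD, with no B6 share deposited. In an intron of Mastl, the gene of a cell-cycle kinase, heat was 377 in the F1 and 632.3 in PWD/PWD with a B6 share of 0.469. The other two lay in a coding exon of Smap1, which also overlaps B3gat2 (404.5 in the F1, 609.9 in PWD/PWD, B6 share 0.542), and in an intron of 9930021J03Rik (373.6 in the F1, 598 in PWD/PWD, B6 share 0.476). All 5 were thus 0.596 to 0.713 times as hot in the F1, and the 4 with a B6 share were near balance.

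The hottest members called not found mostly had an F1 hotspot just beyond the limit. In the F1 map the nearest centre to the Cc2d2a member, in an intron of a gene of the primary cilium, was 1143 bp away with a heat of 174.4, beside a PWD/PWD heat of 312.3. For Slc35d3 (22270 bp from the member), Strn (134 bp) and Satb1 (334025 bp), the nearest F1 centres lay 1409, 1465 and 1121 bp away with F1 heats of 223, 146.7 and 225, against PWD/PWD heats of 256.2, 238.1 and 225.3. The Gipc2 member, in an intron, with 245.2 in PWD/PWD, was the exception, with the nearest F1 hotspot 10518 bp away at a heat of 11.6. Of the 26 members of the hottest decile that were not found, 8 or 30.8% had an F1 centre within 2000 bp, against 2.94% of all members not found. The rest of the 26 had none within that distance, so the count not found depends only in part on the 1000 bp limit. The Slc35d3 member had a hotspot within 1000 bp in the rescue (heat 52.7) and Hum/PWD F1 (34.5) maps described below. So did the Satb1 member, at 55.1 in rescue and 79.3 in Hum/PWD F1. Whether the infertile F1 centres beyond the limit belong to the same hotspots was not tested.

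At found members DMC1 heat was mostly lower in the infertile F1 than in PWD/PWD. Median F1 heat was 25.5, and the median log2 ratio of F1 over PWD/PWD heat was -1.55 with a 95% rank interval of -1.59 to -1.51, a ratio of 0.341. Quartiles were -2.49 and -0.44. The F1 heat was at least 2-fold lower at 6011 of 9544 found members, 63.0%, next to 62.2% of all matched PWD/PWD hotspots. It was at least 2-fold higher at 810, or 8.49%, next to 8.81% of all matched PWD/PWD hotspots. These shares are near those of the whole PWD/PWD map, of which the members are nearly all. Heat is relative within a map, and its sum was 1495572 in the F1 and 1392224 in PWD/PWD over autosomes. The DMC1 libraries come from whole testis, and a relative signal shows neither the number of cells at the DMC1 stage nor the total signal in each cell. The F1 map also holds hotspots of the B6 allele. Hotspots matched to members held 37.9% of the F1 heat, while members held 97.3% of the PWD/PWD heat. How far this division of a similar sum lowers the ratio was not tested. Putting members not found at the lowest F1 heat gave a median of -2.14.

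The ratio did not run evenly with PWD/PWD heat. Its median by decile, coldest first, was 0.22, 0.03, -0.08, -0.43, -1.16, -1.70, -2.06, -2.20, -2.04 and -1.48. The lowest ratio thus stood in the eighth decile, where median heat was 18.9 in the F1 and 87.4 in PWD/PWD among found members, and the hottest decile was less reduced, with 81.4 in the F1 and 215.4 in PWD/PWD. With members not found put at the lowest F1 heat the medians were -1.31 in the coldest, -3.31 in the sixth and -1.49 in the hottest decile, but in the 6 colder deciles most members were not found, so there the median is set by that lowest heat. Between the second and the seventh decile median F1 heat stayed between 13.4 and 17.7, while median PWD/PWD heat of the same members spanned 14.1 to 61.3. PWD/PWD heat both sets the decile and divides the ratio. Deciles made instead from the heat in the rescue F1 map, over the 3891 members found there, gave medians of -1.59 in the coldest and 1.15 in the hottest. The same 3891 members ranked by PWD/PWD heat gave 2.70 in the coldest and -0.97 in the hottest, so among them the direction depended on which map ranked them.

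**Figure D2:**
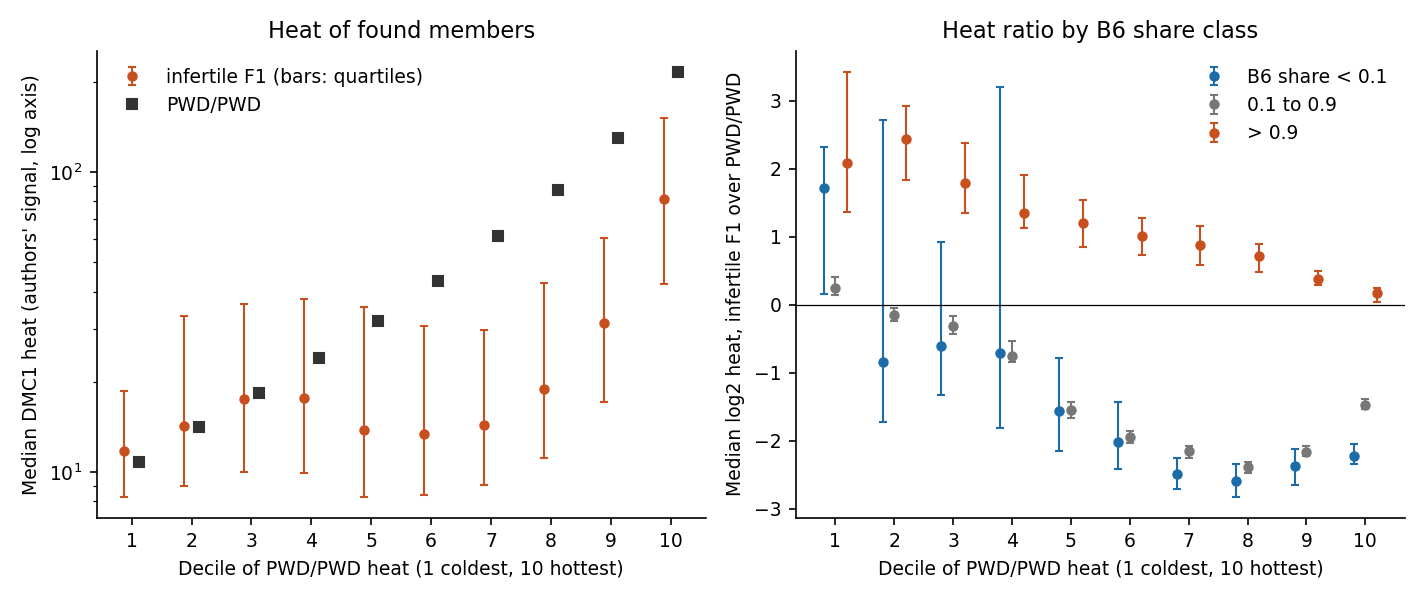
Left, median DMC1 heat of found members in the infertile F1 (with quartiles) and in PWD/PWD, on a log axis, by decile of PWD/PWD heat; right, median log2 heat ratio of infertile F1 over PWD/PWD in 3 classes of B6 share, with 95% rank intervals. The class with a B6 share above 0.9 lies above 0 in every decile, while the class from 0.1 to 0.9 lies below 0 in all but the coldest.

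The B6 share separated members by how their heat compared. Of the 9544 found members 8457 had a B6 share, with a median of 0.600 (95% rank interval 0.591 to 0.605) and quartiles of 0.412 and 0.824. Weighted by F1 heat the mean was 0.718, so hotter F1 hotspots leaned further to the B6 chromosome. A B6 share below 0.1, with nearly all signal on the PWD chromosome, was held by 884 members (10.5%, next to 20.7% of all infertile F1 hotspots with a B6 share). The range from 0.1 to 0.9, called symmetric here, held 5980 (70.7%, next to 57.3% of all F1 hotspots). Above 0.9 lay 1593 (18.8%, next to 22% of all F1 hotspots). The whole-map values also contain the hotspots of the B6 allele.

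Members with a B6 share above 0.9 were hotter in the F1 than in PWD/PWD, and the other classes were colder. Their median log2 ratio was 0.85, a ratio of 1.80, and 72.8% of them were hotter in the F1. Symmetric members had a median of -1.77, and members with a B6 share below 0.1 had -2.25. Median heat in the class above 0.9 was 116.8 in the F1 and 49 in PWD/PWD. In the symmetric class it was 22.2 in the F1 and 97.2 in PWD/PWD, and in the class below 0.1 it was 23.3 in the F1 and 121.8 in PWD/PWD. Among members with a B6 share the class above 0.9 thus held 42.6% of the F1 heat and 12% of the PWD/PWD heat. In bins of 0.1 of the B6 share the median ratio was lowest at -2.75 between 0.1 and 0.2, -1.75 between 0.5 and 0.6, and -0.95 between 0.8 and 0.9. Of the 10 bins only the last, from 0.9 to 1, was above 0, at 0.83.

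Splitting the F1 heat by chromosome gave the same classes another reading. The heat of a member's PWD chromosome, F1 heat times one minus the B6 share, was set beside the PWD/PWD heat divided by 2, since PWD/PWD males have 2 PWD chromosomes. In the symmetric class the median was 9.38 on the PWD chromosome of the F1 and 48.6 for 1 chromosome of PWD/PWD. In the class below 0.1 these were 22.5 in the F1 and 60.9 in PWD/PWD, and in the class above 0.9 they were 1.67 in the F1 and 24.5 in PWD/PWD. The class above 0.9 is defined by a small PWD part, so its low value follows from its choice. In the class below 0.1 the F1 value was the higher one in the 4 colder deciles, which hold few members, with 29.0 in the F1 and 5.45 in PWD/PWD in the coldest over 6 members. The measure rests on maps scaled to similar sums.

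Within the 5 hotter deciles the 3 largest heat ratios were at members with a B6 share near 1. The member in an intron of Sorcs1, a sorting receptor gene (chr19:50170318), had a heat of 845.5 in the F1 and 63.2 in PWD/PWD, a log2 ratio of 3.74 with a B6 share of 0.996. Those in introns of Ebf1, a transcription factor gene of B cells, and Ptk2, the gene of focal adhesion kinase, had 461.1 and 483.3 in the F1, against 41.7 and 47.2 in PWD/PWD, with B6 shares of 0.990 and 0.996. The same sites were hot in the reciprocal F1, at 1019.6 for Sorcs1, 465.9 for Ebf1 and 518.2 for Ptk2. Among the hottest F1 members with a B6 share above 0.9 were also an intron of Zfc3h1 (687.3 in the F1, 189.3 in PWD/PWD) and a site 9698 bp from 2310061N02Rik (667.9 in the F1, 262 in PWD/PWD). Their H3K4me3 B6 shares were 1.00 and 0.817.

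The smallest ratios were at hot PWD/PWD hotspots with almost no F1 heat. A member in an intron of 1700021F07Rik had a heat of 5.9 in the F1 and 207.1 in PWD/PWD, a log2 ratio of -5.13, with an H3K4me3 enrichment of 0. The member 20691 bp from the potassium channel gene Kcnj8 had 9.2 in the F1 and 294.4 in PWD/PWD. Its bin was flagged as PRDM9-independent H3K4me3. The member 2954 bp from Cdhr3 had 6.6 in the F1 and 198.8 in PWD/PWD. None of the 3 was found in the reciprocal, rescue or Hum/PWD F1 map.

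Members on the PWD chromosome alone were led by a site 23 bp from Atp6v1e2, a proton pump subunit gene, with a heat of 379.7 in the F1 and 486.7 in PWD/PWD and a B6 share of 0.009. The authors' assignment there was undetermined and the bin was flagged as PRDM9-independent H3K4me3. The next, 10533 bp from Hyal6, had 378.8 in the F1 and 13 in PWD/PWD, but its F1 centre lay 837 bp away and the authors assigned it to the B6 allele. The hottest symmetric members were in an intron of the kinase gene Map4k5 (491.3 in the F1, 533.4 in PWD/PWD, B6 share 0.882), 239283 bp from Gm597 (483.3 in the F1, 555.3 in PWD/PWD, B6 share 0.610) and the Celf2 site shown above.

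Across the deciles of all found members the B6 share was farthest from balance in the fourth. Its median was 0.685 in the coldest decile, 0.819 in the fourth, 0.600 in the seventh and 0.535 in the hottest. Without the hotspots that the authors flag as PRDM9-independent H3K4me3 it was instead farthest from balance in the coldest, at 0.983, with 0.930 in the fourth and 0.539 in the hottest. Members with a B6 share above 0.9 made up 29.3% of the coldest decile, 40.2% of the fourth and 7.75% of the hottest. Those below 0.1 made up 2.70% of the coldest and 15.4% of the hottest. In the class above 0.9 the median log2 ratio was 2.08 in the coldest decile, 1.01 in the sixth and 0.17 in the hottest, with 149 to 226 members in deciles 3 to 10. In the symmetric class it was 0.25 in the coldest and -2.39 in the eighth decile. PWD/PWD heat both sets the decile and divides these ratios, and only members above the lowest F1 heat enter them. A fall of the ratio with decile within a class can follow from this alone. No other ranking was run by class. The Spearman correlation of F1 and PWD/PWD heat was 0.668 over 5980 symmetric members, 0.587 over 884 members below 0.1 and 0.364 over 1593 above 0.9, all points sharing the same pair of libraries.

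**Figure D3:**
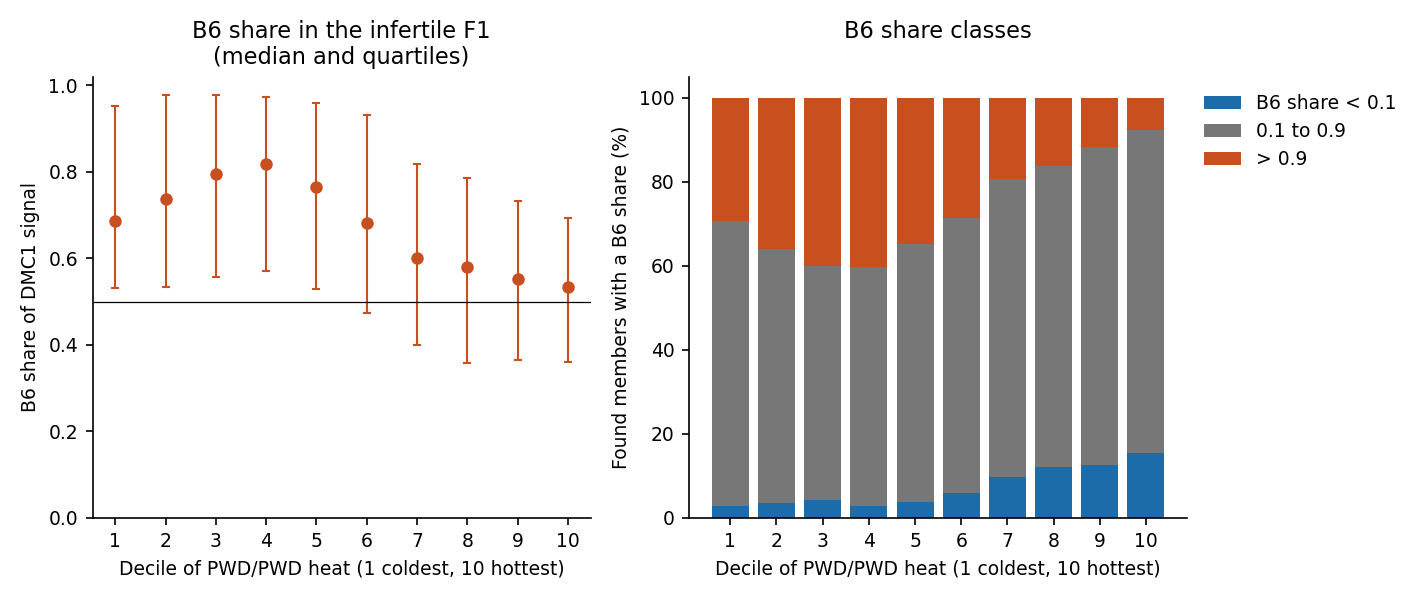
Left, B6 share of the DMC1 signal in the infertile F1 (median and quartiles) by decile of PWD/PWD heat, with a line at 0.5; right, the percentage of found members in 3 classes of B6 share. The median is 0.819 in the fourth decile and 0.535 in the hottest, where the symmetric class is 76.8%.

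The cold members that were found differed in kind from the hot ones. In the coldest decile 44.5% of the 292 found members had a coding transcript's start within 1 kb, against 5.42% of the 1772 not found. The authors flag F1 bins that overlap an H3K4me3 peak likely made without PRDM9, and the flag was on 52.4% of found members in the coldest decile and 6.33% in the hottest, with 12.3% over all found members and 16.1% over all infertile F1 hotspots. In the coldest decile the 153 flagged members had a median B6 share of 0.596 and 94.7% of those with a B6 share were symmetric. The 139 without the flag had a median of 0.983 and 65.9% lay above 0.9. Their log2 heat ratios were 0.28 with the flag and -0.05 without it, both medians. Without flagged hotspots 40.6% of all members were found. Their part in the heat ratios was thus measured by leaving them out, which gave a median log2 ratio of -1.69 over all deciles.

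H3K4me3 in the infertile F1 was counted by the authors in 1 kb bins around each F1 hotspot, in 2 biological replicates and an input library. Counts summed over the found members of the coldest decile were 22.2 times the input in replicate 1 and 21.6 times in replicate 2. They were 1.54 and 1.64 times in the eighth decile and 2.52 and 2.62 times in the hottest. The replicates stayed close in every decile. These counts were not scaled for library depth, so a ratio of 1 is not a level without enrichment. Median enrichment, a ratio deposited by the authors, was 3.42 in the coldest, 0.523 in the seventh and 1.63 in the hottest decile. Without flagged bins the order of the ends turned round. The coldest over the hottest decile gave a ratio of 0.610, against 8.53 with all bins. By B6 share class the median enrichment was 0.513 below 0.1, 0.874 in the symmetric class and 1.83 above 0.9.

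**Figure D4:**
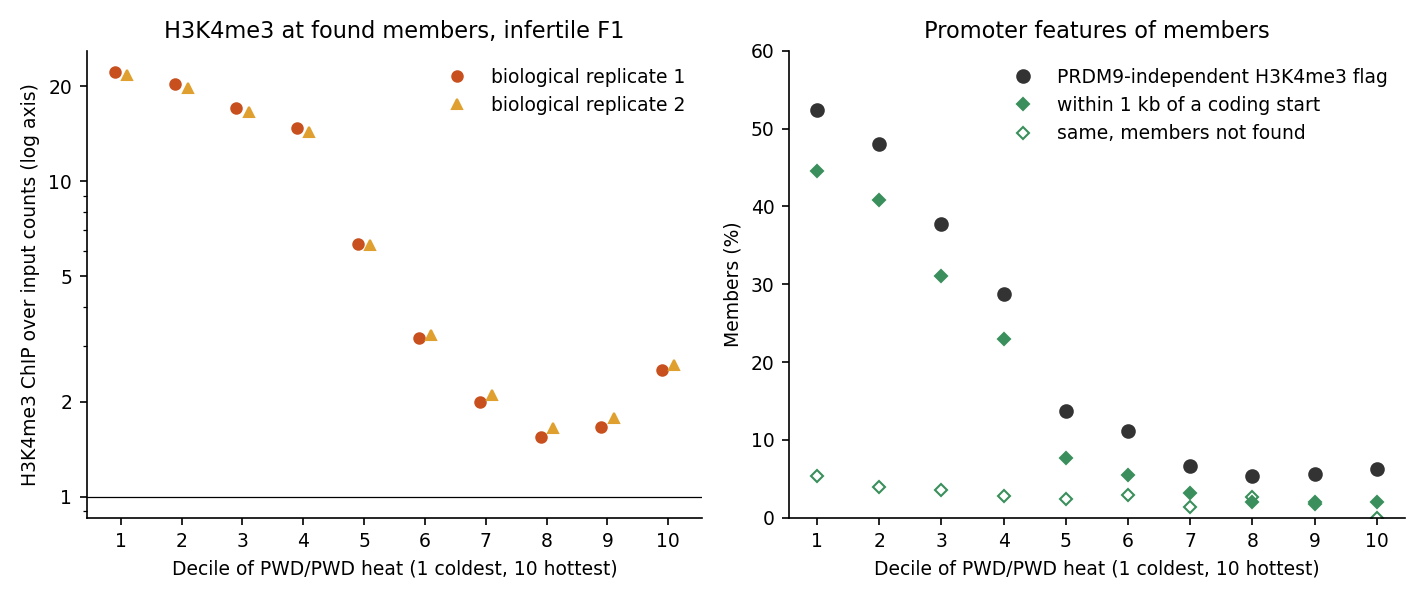
Left, H3K4me3 ChIP counts over input counts at found members in the infertile F1, 1 symbol for each of 2 biological replicates, on a log axis; right, the percentage of found members with the authors' PRDM9-independent flag, and of found and not found members within 1 kb of a coding start. The ratio is 22.2 and 21.6 in the coldest decile, where 52.4% carry the flag. Counts were not scaled for library depth, so the line at 1 is not a level without enrichment.

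H3K4me3 gave a second reading of which chromosome was marked. Over 5932 found members with at least 10 informative H3K4me3 reads the median B6 share was 0.535. Over the 5810 members with both shares the median was 0.537 by H3K4me3 and 0.624 by DMC1, and their Spearman correlation was 0.815, measured in different libraries of the same cross. In the DMC1 classes the median H3K4me3 B6 share was 0.0128 below 0.1, 0.511 in the symmetric class and 0.941 above 0.9. The Mastl member had 0.446 by H3K4me3 and 0.469 by DMC1, and Celf2 had 0.673 by H3K4me3 and 0.893 by DMC1.

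The words at the centres differed between classes. On even-numbered autosomes 11.8% of members with a B6 share below 0.1 held a word in the B6 reference (95% Wilson interval 9.03 to 15.2%). The symmetric class held one in 17.5% (16.2 to 19%) and the class above 0.9 in 18.6% (15.9 to 21.6%). The first interval did not overlap the others. Found and not found members were at 17.2 and 14.8%, but within the 5 hotter deciles they were at 18.3 and 17.1% with overlapping intervals. By decile the share with a word was 12.3% in the coldest and 17.7% in the hottest. Found members with the PRDM9-independent flag held a word in 10.6%.

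The other hybrids that carried a PWD allele are the reciprocal F1 (B6 mothers and PWD fathers, alleles B6 and PWD), the rescue F1 (PWD mothers, alleles PWD and Hum, the humanized one) and the Hum/PWD F1 (B6 mothers, alleles Hum and PWD), all with PWD and B6 chromosomes. The infertile map held 46.2% of the members. The reciprocal map held 34.0% (34.7% of all PWD/PWD hotspots), the rescue map 18.8% (19%) and the Hum/PWD F1 map 29.4% (29.6%). Those maps hold 23554, 17516, 15019 and 20623 autosomal hotspots in the same order, with a lowest heat of 4, 6.4, 13.7 and 5.8, so the shares do not compare the genotypes. With the infertile map cut to its hottest 15019 hotspots 30.4% of members were found. In total 3502 members, 17.0%, were found in all 4 and 10544, 51.1%, in none. Of the 7023 members of the reciprocal map 6870 were also in the infertile map, and the 2674 members in the infertile but not the reciprocal map had a median infertile F1 heat of 9.6.

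A median ratio above 0 in the class with a B6 share above 0.9 was present in each of the 4 hybrids. Members with a B6 share above 0.9 had a median log2 ratio over PWD/PWD heat of 0.85 in infertile, 0.73 in reciprocal, 1.01 in rescue and 0.82 in Hum/PWD F1 males. The symmetric class had -1.77, -1.90, -1.61 and -2 in that order. The class below 0.1 had -2.25, -2.30, -1.45 and -2, so in rescue and Hum/PWD F1 males it was not below the symmetric class. All 4 are set against the same PWD/PWD library. Over 5807 members with a B6 share in both, the infertile and reciprocal shares had a Spearman correlation of 0.941, with medians of 0.639 and 0.667.

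All 19 autosomes shared the main features. The median log2 heat ratio was below 0 on each, between -1.92 on chromosome 8 and -1.13 on chromosome 18. The median B6 share was above 0.5 on each, between 0.554 on chromosome 4 and 0.642 on chromosome 11. Found members with the PRDM9-independent flag also had medians above 0.5 in all deciles but the hottest, with 0.596 in the coldest and 0.491 in the hottest. Whether the use of mm10, a B6 genome, raised the B6 share was not tested. The share found lay between 41.9% on chromosome 6 and 55.1% on chromosome 18, and the 95% interval covered the genome value on 12 of the 19. Chromosome 18 had the highest share found, the highest heat ratio and the most symmetric members, 75.7%. Its share found was 7.74 percentage points above the 47.3% that its members' deciles give, and in the 5 hotter deciles it was 83.4%, against 66.5% on chromosome 6. Its members were also found most often in the reciprocal map, at 44.0%, but not in the rescue map, at 20.1% against 22.1% on chromosome 9. Chromosome 1 differed by 5.48 and chromosome 8 by -4.71 points from the shares that their deciles give.

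**Figure D5:**
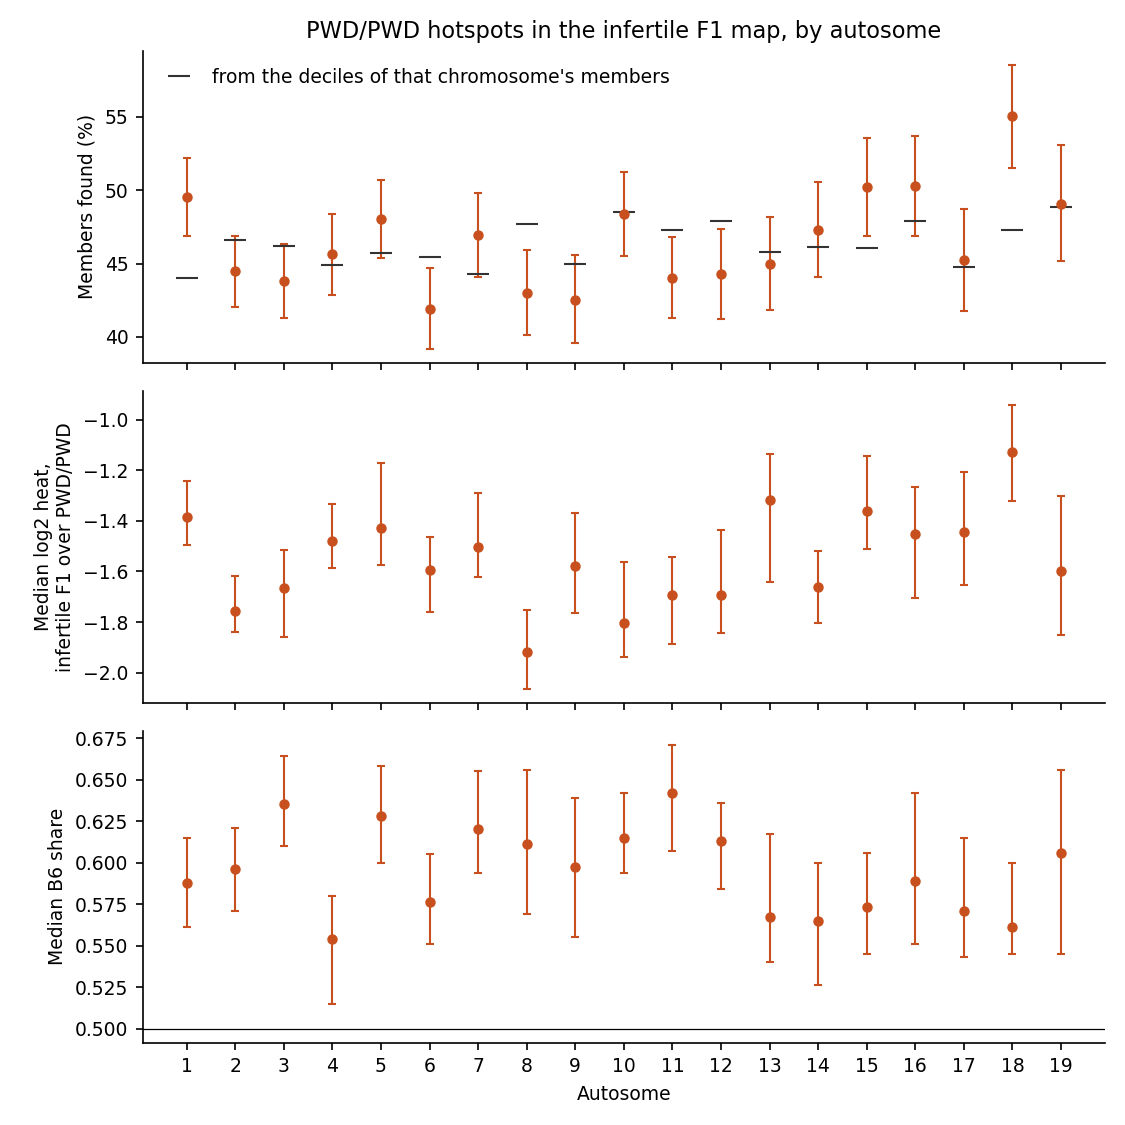
Share of members found in the infertile F1 map, median log2 heat ratio of infertile F1 over PWD/PWD, and median B6 share, for each of the 19 autosomes, with 95% Wilson or rank intervals; short bars give the share that each chromosome's heat deciles imply. Every median ratio is below 0 and every median B6 share above 0.5, and chromosome 18 has the highest share found, 55.1%.

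Over the 19 autosomes the share found had a Pearson correlation of 0.902 with the share found in the reciprocal map (Spearman 0.889) and of 0.225 with that in the rescue map (Spearman 0.235). The points share the PWD/PWD members and are described without a test. The rescue map held 18.8% of members and has a lowest heat of 13.7, against 34.0% and 6.4 for the reciprocal map. The correlations therefore do not compare the genotypes. The share found and the median log2 ratio had a Pearson correlation of 0.627 (Spearman 0.533), and the ratio and the median B6 share one of -0.532 (Spearman -0.540). Along each chromosome, cut into 5 stretches of equal length over the span of its members, the share found was 45.0% in the first, where the deciles gave 47.5%, and 42.9% in the last, where they gave 45.0%. In the 3 stretches between it was 47.5 to 48.8%, where the deciles gave 46.2 to 46.5%. The median B6 share was highest in the last at 0.627.

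Some genes that act in break formation and repair were themselves sites of members. Of 26 listed genes 12 had a member inside or within 2000 bp, 19 members in all, and 9 of them were found. The share of all protein-coding genes with a member was not counted, so 12 of 26 has no background beside it. In an intron of Gm960, which encodes the TOPOVIBL subunit of the break-making complex, heat was 446.4 in the F1 and 25.7 in PWD/PWD with a B6 share of 0.996. In Rec114, which is needed for break formation, the hotter of 2 members had 89.1 in the F1 and 216.9 in PWD/PWD with a B6 share of 0.354. In Dmc1 itself one intronic member had 51.6 in the F1 and 51.9 in PWD/PWD, and another had 66.1 in the F1 and 27.2 in PWD/PWD with a B6 share of 0.916. Msh4, whose product stabilises crossover intermediates, had a member with 9 in the F1 and 180.9 in PWD/PWD. Another in Msh4 had 55.1 in the F1 and 134.3 in PWD/PWD, at a bin with the PRDM9-independent flag. Hsf2bp, whose product binds BRCA2, had 293.2 in the F1 and 131.6 in PWD/PWD with a B6 share of 0.981, also at a flagged bin. The Ankrd31 member at 140.6 in PWD/PWD was not found in the infertile map but had a heat of 173.9 in rescue and 140.5 in Hum/PWD F1 males.

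In the same list, Hells, a chromatin remodeler that works with PRDM9, had 31.4 in the F1 and 24.4 in PWD/PWD at a bin with the PRDM9-independent flag and an H3K4me3 enrichment of 30.3. One of 3 members in Mei4, another break-formation gene, was found, with 13.8 in the F1 and 12 in PWD/PWD, also flagged and at 911 bp. Members in Brca2, Mnd1 and Msh5 were not found, with PWD/PWD heats of 9.9, 54.9 and 35.9. The share found in this list, 47.4%, is close to that of all members, with a median PWD/PWD heat of 25.7 against 37. In the fourth decile, which spans 25.7, 20.9% were found, but the list's members range from the coldest to the hottest decile. The listed genes are sites of the hotspots here, and their expression was not measured.

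Of 19 listed genes of the chromosome axis and synapsis 9 had a member, again with no count over all genes. These were 11 members, and 7 were found, 63.6% next to 46.2% of all members. Their median PWD/PWD heat was 91.2, against 37 for all members. In the eighth decile, which spans that heat, 76.5% were found. Both members in Hormad2, an axis protein gene, were found, the hotter with 234.5 in the F1 and 392.8 in PWD/PWD and the other with 49.6 in the F1 and 149.6 in PWD/PWD. Members in the synaptonemal complex genes Syce2 and Syce3 had 14 and 17.9 in the F1, against 114.5 and 102.7 in PWD/PWD. In the meiotic cohesin gene Rec8 the values were 25.1 in the F1 and 145.5 in PWD/PWD, and in the telomere-attachment gene Terb1 20.3 in the F1 and 81.1 in PWD/PWD with a B6 share of 0.023. Sycp1, which encodes the transverse filament of the synaptonemal complex, was higher, with 46.7 in the F1 and 17.9 in PWD/PWD. The Majin member, at 91.2 in PWD/PWD, and the members at Rad21l and Sun1 were not found.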

How the data were processed

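The analysis started from deposited tables. BWA and the build mm10 are named in the submitters' processing notes. The hotspot caller and the way heat was computed were not given in the sources used here. DMC1 heat is a signal deposited by the authors, and the B6 share a fraction deposited by the authors without its number of informative reads, so read depth is unknown for DMC1 and B6 shares carry no interval of their own. Per the file headers, the H3K4me3 tables hold counts of fragments in 1 kb bins, an enrichment ratio, a p-value (not used to choose members), the B6 fraction and a flag for peaks likely to be PRDM9-independent.

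Nearest centres within 1000 bp were matched, 1 member at a time, and log2 ratios of heat taken with no pseudocount. B6 share classes used limits of 0.1 and 0.9. Shares have 95% Wilson intervals and medians exact binomial rank intervals. They cover counting error only, and hotspots of 1 library are not replicates of a genotype. Bins with input above 10 times the median were left out of H3K4me3 sums. Genes come from GENCODE M21. Named members are the 5 hottest found and not found, and the 3 largest and smallest ratios in the 5 hotter deciles. The 3 hottest in the F1 in each B6 share class were also named. From these, sites in the Hum/Hum map or with high input were left out. Members within 2000 bp of listed genes were named and counted without that exclusion. A listed gene is not reported here by name. The members, lists and rules were chosen with earlier results of these data known. Matching was tested on simulated maps. The software was Python 3.11.15 with pandas 2.3.3, NumPy 2.4.6, Matplotlib 3.10.9 and SciPy 1.17.1.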

Additional observations from a re-analysis of the deposited data

How the results depend on the processing

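The median log2 heat ratio over all found members stayed below 0 under the 7 alternatives run for it, and the median or mean B6 share above 0.5 under the 4 run for it. The share found was 45.4% with a limit of 500 bp and 47.8% with 2000 bp, 40.6% without hotspots flagged as PRDM9-independent, 42.7% with only those that the authors assign to PWD, and 30.4% with the F1 map cut to its hottest 15019 hotspots. The median log2 ratio was -2.14 with members not found at the lowest F1 heat, -1.51 with 2000 bp, -1.66 with heat divided by the sum of its map, -1.68 with the authors' PWD hotspots and -1.69 without flagged ones. The hottest minus coldest decile difference of -1.70 reversed to 2.75 with deciles of rescue F1 heat, was -3.67 over the same members ranked by PWD/PWD heat, and was -1.43 without flagged hotspots. The median B6 share was 0.535 by H3K4me3, and the mean of the DMC1 B6 share was 0.584. The symmetric share was 59.7% with limits of 0.2 and 0.8, 46.4% with 0.3 and 0.7, 73.5% in the 5 hotter deciles and 68.7% without flagged hotspots. Limits of 0.3 and 0.7 gave class medians of -2.38 below and -0.27 above them, so the upper class reversed. In the 5 hotter deciles the symmetric class had -1.98 and the class above 0.9 had 0.55, and without flagged hotspots the symmetric class had -1.92. The H3K4me3 ratio of the coldest over the hottest decile lay between 8.27 and 8.81 with 1 replicate left out and was 0.610 without flagged bins. The reciprocal map held 35.3% of members with 2000 bp, the rescue map 18.2% with 500 bp and 20.1% with 2000 bp, and the Hum/PWD map 28.6% with 500 bp and 31.0% with 2000 bp. Where another cause than fewer hotspots or another distance is involved, the cause was not tested. Leaving out flagged hotspots, except from the share found, the ranking that gave -3.67 and the limits for the 3 other maps were chosen after seeing the data. No paired analysis was possible because each genotype has 1 DMC1 library. Depth and informative reads behind heat and B6 share are unknown, so the error of single values is too.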

Other observations

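The B6/B6 hotspots away from PWD/PWD hotspots gave a picture in the same infertile F1 map that was mirrored only in part. Of 16515 such hotspots 8.90% of the coldest and 99.3% of the hottest decile of B6/B6 heat were found. The median log2 ratio of F1 over B6/B6 heat was -2.07, and the median B6 share was 0.457, on the PWD side of 0.5. The class with a B6 share below 0.1, which lies on the PWD chromosome, held 24.7% of them and had a median log2 ratio of 0.75, while the symmetric class had -2.42 and the class above 0.9 had -2.60. In the coldest decile of B6/B6 heat 73.6% of those with a B6 share lay below 0.1. The B6/B6 and PWD/PWD maps come from different submitters, and the 2 sets were not tested against each other.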
